A study of Mus musculus with 2 samples.

Results

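The genes described here are 8 of the 32285 mouse genes counted in each library of this series, chosen by symbol as drivers and cell-cycle checkpoint genes of the KPCA ovarian cancer model. Trp53, Ccne1 and Akt2 are altered in the model by design, and Cdkn2a, Cdkn1a, Cdkn2b, Myc and Ccnd1 are brakes and accelerators of the G1 phase of the cell cycle. KPCA is a mouse model of high-grade serous ovarian cancer made from fallopian tube epithelial cells that carry Trp53R172H and overexpress Ccne1 and Akt2, among other changes. The tumors grew in the omentum of untreated female C57BL/6J mice, 12 to 16 weeks old, that had received the cells by intraperitoneal injection, and were dissociated at day 10. The KPCA.FSTKO library came from cells derived from the KPCA.C clone with follistatin (Fst) deleted, and the KPCA.FSTKO_hFSTL3 library from 1 stable clone of those cells that carries a human FSTL3 plasmid under geneticin selection. The grafted cancer cells of both libraries therefore lack intact Fst and carry the alterations of KPCA, while the host cells of the mice do not. Each library pooled 4 tumors. With 1 library per genotype there was no replicate check, so no test was made, and a difference between the libraries cannot be told apart from one between clones, pools of mice or preparations.

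In a normal cell, p53 (Trp53) is stabilized by DNA damage and other stress and switches on Cdkn1a, which encodes the cyclin-dependent kinase inhibitor p21. Cyclin D1 (Ccnd1) with CDK4 or CDK6, and then cyclin E1 (Ccne1) with CDK2, release the E2F factors from RB and carry the cell into S phase. The Cdkn2a locus encodes the CDK4/6 inhibitor p16INK4a and, from a separate promoter and another reading frame, ARF, which holds the p53 ligase MDM2 in check, and its neighbour Cdkn2b encodes the related inhibitor p15INK4b. AKT2 is a kinase of the PI3K pathway, and MYC is a transcription factor that drives growth and is a target of many mitogen signals. Loss of p53 function with a gain of cyclin E1 is a known combination in serous ovarian cancer.

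The positions of the genes are given on GRCm38 from the GENCODE vM21 annotation. Trp53 lies at chr11:69580359-69591873 on the plus strand, Akt2 at chr7:27591552-27640826 (plus), Cdkn1a at chr17:29090976-29100727 (plus) and Myc at chr15:61985391-61990374 (plus). Ccne1 lies at chr7:38097984-38107534 on the minus strand, Ccnd1 at chr7:144929931-144939925 (minus), Cdkn2a at chr4:89274471-89294653 (minus) and Cdkn2b at chr4:89306299-89311039 (minus). Cdkn2a and Cdkn2b are neighbours, 11646 bases apart. The 2 protein-coding transcripts of Cdkn2a start at 89294653 and 89282192 and end within the same last exon, at 89274471 and 89274541, so the counts of a 3′ tag assay do not separate p16INK4a from ARF. Such counts also do not separate mutant from wild-type Trp53, and whether the introduced Ccne1 and Akt2 carry the 3′ end that the assay reads was not tested. Ccnd1 shares 1771 bases with LTO1 on the opposite strand.

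The link from p53 to Cdkn1a is written in the promoter, so the promoters were searched for the p53 response element, a pair of decamers with no spacer. The element was searched on both strands of the 250 bases before each RefSeq gene start (GRCm38.p6), with at most 1 mismatch outside the core letters. It was found in 0.0578% of 32851 windows. Among the 6 members with a window (Myc and Ccnd1 had none) it was found in 1, Cdkn1a, and among 19 p53 target genes with a window in 2, Cdkn1a and Ccng1. Both matches had 1 mismatch. They are shown 5′ to 3′ on the strand of the gene, with the element in capitals and flanking bases in lower case. The Cdkn1a stretch is chr17:29090913-29090962 (plus), with the element 51 to 32 bases before the upstream of its 2 RefSeq starts, at 29090979 (the window of the other, at 29093769, held none), and the Ccng1 stretch is chr11:40755447-40755496 (minus), with the element 195 to 176 bases before the start.
Cdkn1a: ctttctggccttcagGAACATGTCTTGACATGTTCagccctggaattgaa
Ccng1: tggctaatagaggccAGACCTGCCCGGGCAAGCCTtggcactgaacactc
A match of letters is a description of the sequence and not a measured binding site.

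Cancer cells were taken as barcodes in which Krt7, Krt8, Krt18 and Krt19 together made at least 0.1% of the unique molecular identifiers (UMIs, each counting 1 captured transcript) and in which Ptprc, the leukocyte gene CD45, had 0 UMIs. The gate held 3589 of 6777 kept cells in KPCA.FSTKO, with a median of 25879 UMIs, and 2274 of 4041 in KPCA.FSTKO_hFSTL3, with a median of 12301. The cells with a keratin share under 0.1% are called host cells, and there were 3057 and 525 of them. A further 131 and 1242 cells had both keratin and Ptprc and entered neither side. All 6 of the fallopian epithelial markers checked, among them Pax8, Msln and Wfdc2, were detected in the gate of both libraries. Their summed level there was 1169 and 412 CPM (counts scaled to a class total of 1000000). The highest single gene gave 589 and 295 CPM of that and the lowest 2.87 and 1.20 CPM, so the sum was uneven over the genes. Msln, like the keratin Krt19 of the gate, is also expressed by mesothelial cells. All 6 were also detected in the macrophage-like host cells, at a summed 74.4 and 43.2 CPM, so detection alone does not name the cells. In the gates a separate mesothelial list summed to 4.44 and 22.5 CPM and a fibroblast list to 698 and 1393 CPM. The libraries shared 12 barcodes, of which 2 were gated in both.

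The KPCA.FSTKO_hFSTL3 library stood apart, because its gated cells held far more RNA of other cell types. In its gate the macrophage marker list summed to 1041 CPM, against 41.4 in KPCA.FSTKO, and the pancreatic acinar list to 5742 CPM against 82.8. The median mitochondrial share was 11.1% against 3.37%. A stricter set was therefore added after the data were seen, of gated cells with under 0.02% macrophage list UMIs and under 0.1% acinar list UMIs. It is called the clean gate here. It held 3058 cells (median 29175.5 UMIs) in KPCA.FSTKO but 179 (median 47321) in the other library, and the levels and ratios of the 8 genes in KPCA.FSTKO_hFSTL3 are given with it as well. The host side had a limit too, since 1397 of the 3057 host cells of KPCA.FSTKO matched no marker list. These unnamed cells held the fallopian list at 0.0426% of UMIs, beside 0.117% and 0.0412% in the gates, with Cdkn2a at 623 CPM and Ccnd1 at 354 CPM. The 148 unnamed cells of the other library held Cdkn2a at 319.7 CPM. Over all other kept cells, the unnamed cells of KPCA.FSTKO were led by the immunoglobulin gene Ighm (152-fold) and the mast cell gene Mcpt2 (75.8-fold). Those of the other library were led by the plasma cell genes Pou2af1 (89.4-fold) and Mzb1 (69.4-fold), so leukocytes were among the unnamed cells as well. The leukocytes alone, 1122 and 201 host cells with Ptprc, therefore served as a second host group, and the part of unrecognized cancer cells among the unnamed ones was not tested.

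Levels are given as CPM over all cells of a class, with exact 95% Poisson intervals, shares of cells with exact Clopper-Pearson intervals, and ratios with exact binomial intervals. All of these cover counting error only, not the spread between mice, and many follow from large counts.

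Ccnd1 and the paired inhibitor genes Cdkn2a and Cdkn2b marked the cancer cells most clearly. Over the leukocytes, the gated cells held 14.0-fold more Cdkn2a in KPCA.FSTKO (95% interval 13.0 to 15.2) and 11.3-fold more in KPCA.FSTKO_hFSTL3 (9.19 to 14.0). Cdkn2b was 12-fold (10.2 to 14.1) and 9.06-fold higher (6.62 to 12.8). Ccnd1 was 5.98-fold (5.70 to 6.28) and 3.27-fold higher, and Myc 3.77-fold (3.17 to 4.50) and 2.95-fold. Cdkn1a went the other way in both libraries. It was lower in the cancer cells than in the summed leukocytes, at ratios of 0.279 and 0.297. That order did not hold for every leukocyte class, since T and NK-like cells of KPCA.FSTKO held less Cdkn1a than its cancer cells. Trp53, Ccne1 and Akt2, which the model was engineered to alter, were less far above the leukocyte level in KPCA.FSTKO. Their ratios were 1.53, 1.56 and 1.16, each with an interval above 1. In KPCA.FSTKO_hFSTL3 they stood at 0.678, 0.352 and 0.892. In its clean gate Trp53 and Akt2 turned to 1.05 (0.865 to 1.28) and 1.24 (0.994 to 1.55), both with an interval that includes 1, and Ccne1 stood at 0.438 (0.268 to 0.717). The other ratios of that clean gate were wider apart, at 17.0 for Cdkn2a (13.8 to 21.1), 11.4 for Cdkn2b (8.28 to 16.1), 5.80 for Ccnd1 (5.32 to 6.32), 4.76 for Myc (3.52 to 6.58) and 0.196 for Cdkn1a (0.176 to 0.219). With a ratio of 2 as the mark, 4 of the 8 genes were higher and 1 lower in KPCA.FSTKO, where 25.6% of the 13505 genes compared were higher and 18.4% lower. In the whole gate of KPCA.FSTKO_hFSTL3 there were 4 higher and 2 lower, against 19.4% and 22% of 11717 genes.

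Against all host cells the differences were smaller in KPCA.FSTKO, and the unnamed cells were part of that host group. Ccnd1, at 3.21-fold higher (3.14 to 3.28), was the 1 member past a ratio of 2 and no member was as much lower, where 4.18% of 14283 genes were higher and 18.6% lower. Cdkn2a fell just short of the mark at 1.98 (1.94 to 2.01), and Cdkn2b stood at 1.71, Myc at 1.66 and Cdkn1a at 0.552, although with a keratin threshold of 0.5%, which puts the cells between the thresholds on the host side, the log2 ratios of these 3 genes became -0.04, -0.01 and 0.10. With that threshold the log2 ratio of Cdkn2a fell from 0.98 to 0.01 and that of Ccnd1 from 1.68 to 0.61. The median of the 8 log2 ratios was 0.58, against -0.13 over all genes. In KPCA.FSTKO_hFSTL3, 4 members were past the mark upward and 2 downward, against 8.14% and 23.1% of 11991 genes. Those higher were Cdkn2a (4.37, interval 3.97 to 4.82), Cdkn2b (4.01, 3.43 to 4.72), Ccnd1 (3.15, 2.97 to 3.35) and Myc (2.45, 2.01 to 3.03). Those lower were Cdkn1a (0.420) and Ccne1 (0.437). The median there was 0.48, against -0.26 over all genes. With the clean gate of that library Ccne1 was short of the mark at 0.543 (0.347 to 0.843), Ccnd1 stood at 5.59 (5.25 to 5.96), Cdkn2a at 6.58 (5.97 to 7.28) and Myc at 3.96 (3.20 to 4.93), and the median was 1.06 against 0.07.

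**Figure D1:**
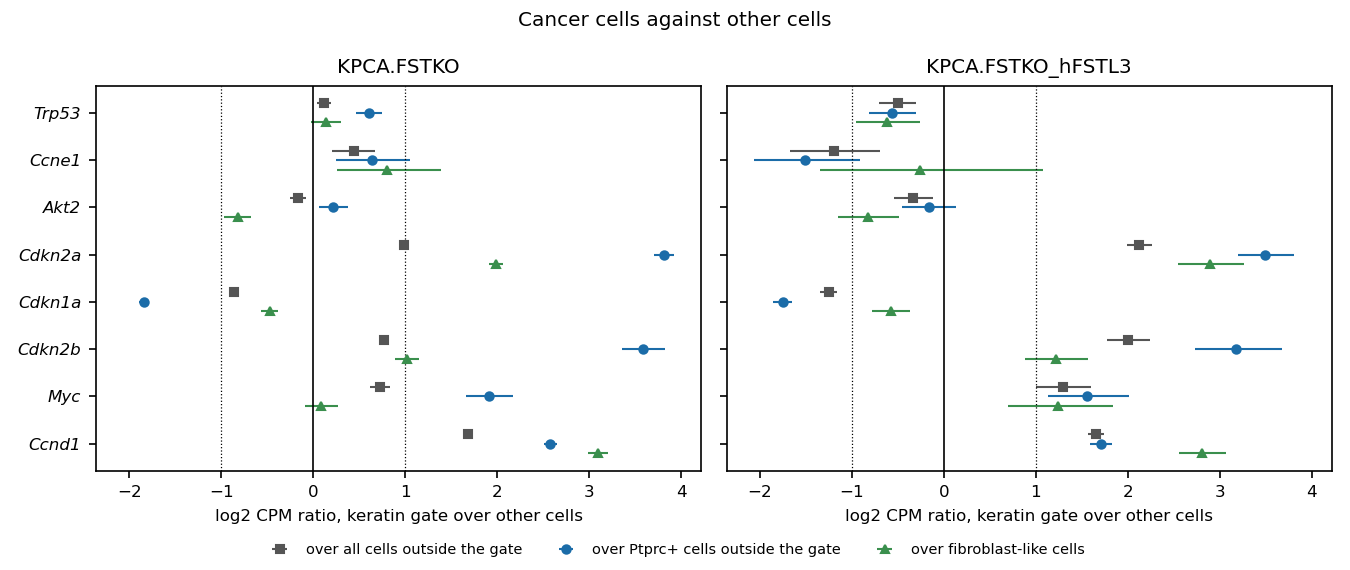
Ratio of CPM on a log2 scale between gated cancer cells and all cells outside the gate with little keratin (squares), Ptprc-positive cells (circles) and fibroblast-like cells (triangles) for the 8 genes, with 1 panel per library and 95% counting intervals as bars. Cdkn2a, Cdkn2b and Ccnd1 lie right of zero against every host group in both panels, and Cdkn1a lies left of it in all.

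Among the genes altered by design, Trp53 was found at 49.5 CPM (48.1 to 50.9) in the gated cells of KPCA.FSTKO and at 29.7 CPM (27.9 to 31.5) in those of KPCA.FSTKO_hFSTL3, or 45.9 CPM (41.4 to 50.7) in the clean gate of the latter. These levels lay inside the range of the host classes. T and NK-like cells held more, at 88.2 CPM (63.0 to 120) and 91.1 CPM, and macrophage-like cells 30.4 and 42.2 CPM. Endothelial-like, pericyte-like and fibroblast-like cells of KPCA.FSTKO, at 57.8, 51.2 and 45.0 CPM, could not be separated from its cancer cells by their intervals. The 88 neutrophil-like cells of KPCA.FSTKO had 0 Trp53 UMIs, where 3 counts would be 11.2 CPM, so its level there was below that of the cancer cells.

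Ccne1 was sparse everywhere. It reached 6.44 CPM (5.94 to 6.97) in the cancer cells of KPCA.FSTKO and 3.59 CPM (2.99 to 4.27) in those of KPCA.FSTKO_hFSTL3, with 4.46 CPM (3.16 to 6.12) in the clean gate. Macrophage-like cells held 3.99 CPM (2.92 to 5.32) in the first library and 10.0 CPM (6.65 to 14.5) in the second, so the order of cancer cells and macrophages was opposite in the libraries. In the first, 15 dendritic-like cells stood above the cancer cells at 32.1 CPM (11.8 to 69.8), a value from few UMIs. Ccne2, its paralog, was 1.5-fold higher in cancer than in all host cells of KPCA.FSTKO, close to the 1.36 of Ccne1 (1.16 to 1.6).

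Akt2 showed no clear gain in the cancer cells over all host cells. It stood at 31.6 CPM (30.5 to 32.8) and 29.1 CPM (27.4 to 31.0) in the gate, and at 40.4 CPM (36.2 to 44.9) in the clean gate of KPCA.FSTKO_hFSTL3. Fibroblast-like cells held more, at 55.8 CPM (50.7 to 61.3) and 51.6 CPM (41.2 to 63.9), and endothelial-like cells less, at 13.0 CPM in KPCA.FSTKO. Over all host cells the ratio in KPCA.FSTKO was 0.892 for Akt2 (0.839 to 0.950), turning to a log2 ratio of 0.13 with TMM scaling (trimmed mean of M values), and was 1.16 for its paralog Akt1.

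Cdkn2a, which encodes brakes of both the RB and the p53 pathway, was the gene with the widest gap between cancer cells and leukocytes. Its level was 680 CPM (675 to 686) in the gate of KPCA.FSTKO, 311 CPM (305 to 317) in that of KPCA.FSTKO_hFSTL3 and 468 CPM (454 to 483) in the clean gate of the latter. In macrophage-like cells it was 31.7 and 19.7 CPM and in fibroblast-like cells 171.8 and 41.8 CPM. Among the named host classes of KPCA.FSTKO, the 78 erythroid-like cells came second to the cancer cells, at 205 CPM (165 to 251) from 11 cells with a UMI, followed by the fibroblast-like cells, whose intervals overlapped those of the erythroid-like ones. The gate held 79.6% of all Cdkn2a UMIs of the kept cells of KPCA.FSTKO, and the unnamed host cells 15.7%.

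Cdkn2b stood at 131 CPM (129 to 133) and 106 CPM (103 to 109) in the gate and at 133 CPM (125 to 141) in the clean gate of KPCA.FSTKO_hFSTL3. Outside the gate the unnamed cells were highest, at 128.3 and 67.4 CPM, followed by the fibroblast-like cells at 64.7 and 45.5 CPM, and macrophage-like cells held 6.41 and 7.15 CPM. The number of Cdkn2a UMIs per Cdkn2b UMI was 5.19 (5.09 to 5.29) in the cancer cells of KPCA.FSTKO, and much the same in its macrophage-like cells (4.95, 3.84 to 6.44), T and NK-like cells (5.25) and erythroid-like cells (5.11). It was lower in fibroblast-like cells, at 2.65 (2.39 to 2.94), and in endothelial-like cells, at 1.47 (0.902 to 2.42). The same order held in KPCA.FSTKO_hFSTL3, with 2.93 (2.83 to 3.05) in the gate, 3.52 (3.29 to 3.76) in the clean gate, 2.75 (1.62 to 4.84) in macrophage-like cells and 0.919 (0.651 to 1.29) in fibroblast-like cells. RNA released from cancer cells into the droplets would keep the cancer cells' ratio in every class, and its part in the leukocyte counts was not tested. Mtap, the next gene at the locus, 93390 bases from Cdkn2a, was 4.28-fold higher in the cancer cells than in the leukocytes of KPCA.FSTKO (3.89 to 4.73). Of the other INK4 genes, Cdkn2c stood at a ratio of 0.902 over all host cells and Cdkn2d at 1.32.

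Cdkn1a had its highest levels in the neutrophil-like and macrophage-like cells, although the gate, with more and deeper cells, held 53.6% of its UMIs in KPCA.FSTKO and the macrophage-like cells 24.3%. The gate of KPCA.FSTKO held 103 CPM of it (101 to 105), that of KPCA.FSTKO_hFSTL3 87.8 CPM (84.8 to 91.0), and the clean gate of the latter 58.0 CPM (53 to 63.3). Neutrophil-like cells of KPCA.FSTKO held 1318 CPM (1184 to 1463), and macrophage-like cells 386 CPM (375 to 398) there and 312 CPM (292 to 333) in the other library. Fibroblast-like, pericyte-like and endothelial-like cells of KPCA.FSTKO followed at 142, 139 and 134 CPM, with overlapping intervals. Macrophage list RNA stood at 1041 CPM in that whole gate and at 21.5 CPM in the clean gate, and its part in the Cdkn1a values was not tested. The paralogs Cdkn1b (p27) and Cdkn1c (p57) were at ratios of 0.883 and 0.750 over all host cells of KPCA.FSTKO.

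Myc stood at 36.7 CPM (35.5 to 37.9) and 40.7 CPM (38.6 to 42.8) in the gate and at 65.6 CPM (60.3 to 71.3) in the clean gate of KPCA.FSTKO_hFSTL3. Fibroblast-like cells of KPCA.FSTKO had 34.5 CPM (30.6 to 38.9), which overlapped the cancer cells, and macrophage-like cells 8.15 and 10.0 CPM. For Ccnd1 the gates held 746 CPM (741 to 752) and 553 CPM (545 to 561), and the clean gate 981 CPM (960 to 1002). Cancer cells held the highest Ccnd1 of all classes in both libraries. Endothelial-like cells, at 295 and 253 CPM, and pericyte-like cells, at 224 and 337 CPM, were next among the named stromal and leukocyte classes, and macrophage-like cells had 121 and 177 CPM. Of the other D-type cyclins, Ccnd2 stood at 0.838 and Ccnd3 at 0.610 over all host cells of KPCA.FSTKO.

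**Figure D2:**
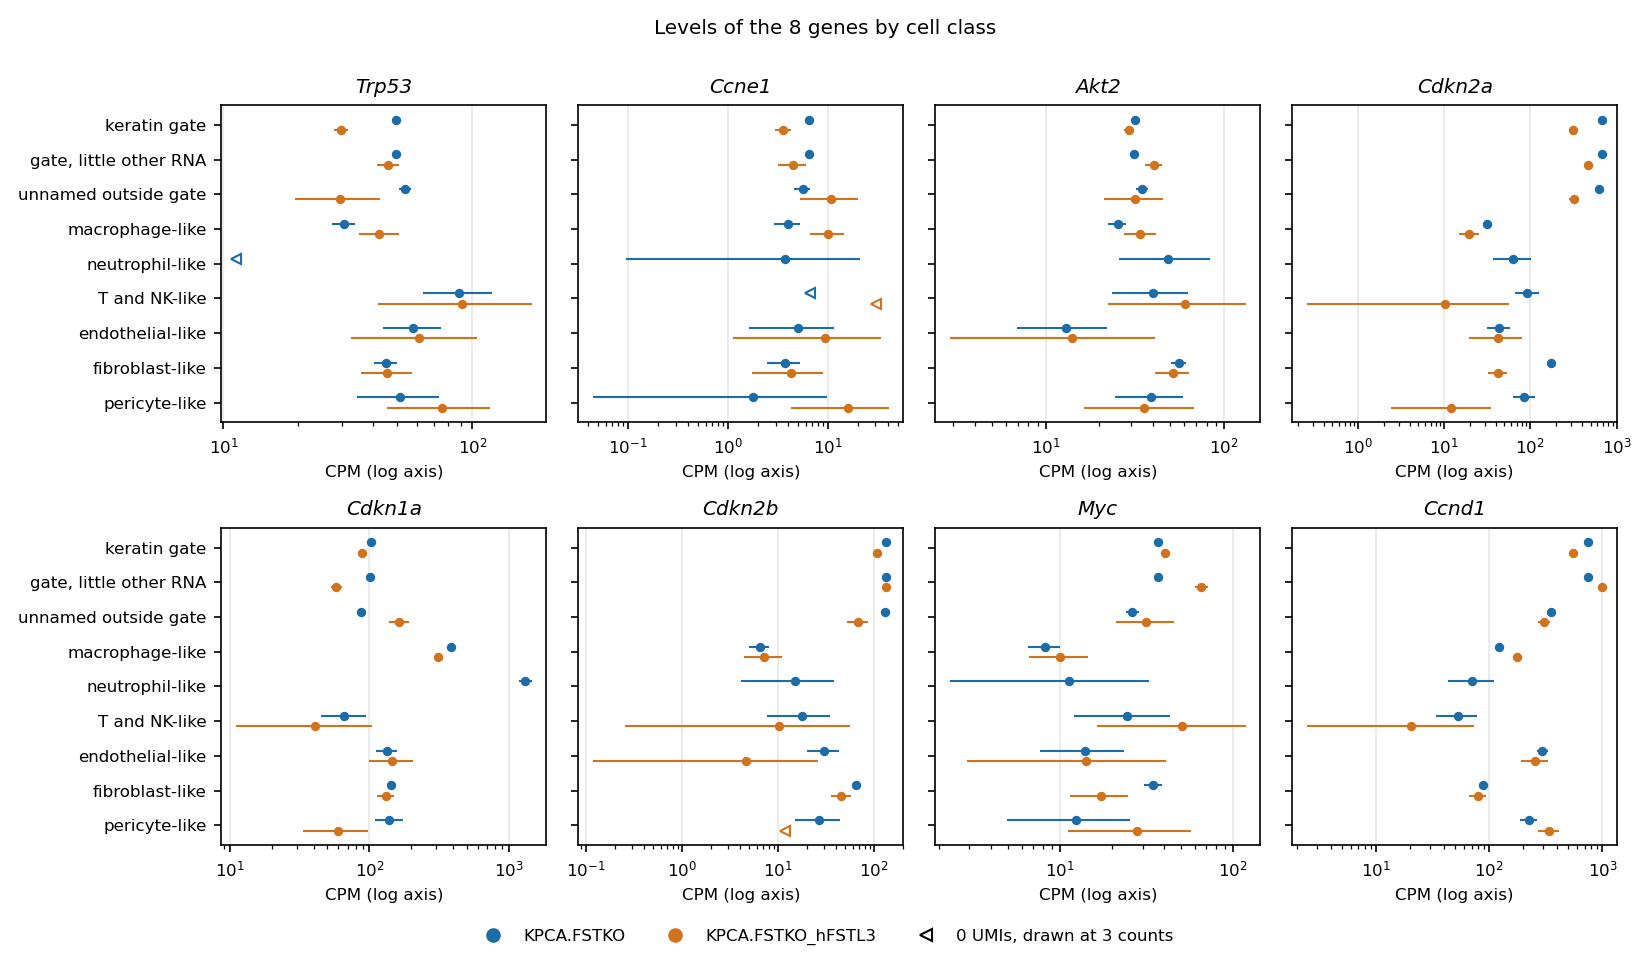
Level of each gene in CPM (log axis) in the keratin gate, the clean gate and the cell classes outside it, with 1 color per library, points for the summed level and bars for the 95% Poisson interval; an open triangle marks 0 UMIs and is drawn at 3 counts. Cdkn2a and Cdkn2b are highest in the gate rows and the unnamed cells, Ccnd1 in the gate rows and Cdkn1a in the neutrophil-like and macrophage-like rows.

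Because a deep cell shows more genes than a shallow one, shares of cells with a UMI were compared after each cell was thinned to 1000 UMIs. Cdkn2a was then seen in 45.0% of the cancer cells of KPCA.FSTKO (43.3 to 46.8) and in 2.63% of its macrophage-like cells, against 88.8% and 22.7% before thinning. Ccnd1 was seen in 43.7% and 9.34%, and Cdkn2b in 11.7% and 0.120%. For Cdkn1a the shares were reversed, with 7.85% of the cancer cells, 26.8% of the macrophage-like cells and 50% of the neutrophil-like cells. For these genes and classes the thinned shares ran in the order of the CPM values. In KPCA.FSTKO_hFSTL3 Cdkn2a was seen in 23.7% of gated cells and in 38.8% of the clean gate.

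Cdkn2a was not confined to a subset of the cancer cells. Among the 2642 clean-gate cells of KPCA.FSTKO with at least 10000 UMIs, 17 (0.643%) had no Cdkn2a UMI, the median cell held 618 CPM, and the cells lay between 146 and 1592 CPM from the 5th to the 95th percentile. Ccnd1 was missing from 62 cells, with a median of 580 CPM. Ccne1, at the other end, was missing from 84.0% of cells. In the 171 such cells of KPCA.FSTKO_hFSTL3 the medians were 442 CPM for Cdkn2a and 794 CPM for Ccnd1, and 4 and 5 cells had none.

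Between the libraries the answer depended on which gated cells were compared. In the whole gate 7 of the 8 genes were lower in KPCA.FSTKO_hFSTL3, with a median log2 ratio of -0.37. The median over all genes was -0.18 there, so lower ratios were also the more common ones among all genes. Cdkn2a alone was past a ratio of 2, at 0.457 (0.448 to 0.466), and none was as much higher. Of 13612 genes, 7.1% were past that mark downward and 8.96% upward. In the clean gate 0 of the 8 passed that mark in either direction, against 6.41% lower and 3.31% higher of 12711 genes. There Trp53 stood at 0.928 (0.835 to 1.03) and Cdkn2b at 1.01 (0.950 to 1.07), intervals that include 1. Myc at 1.78 (1.63 to 1.95), Ccnd1 at 1.31 (1.28 to 1.34) and Akt2 at 1.28 (1.15 to 1.44) were higher in KPCA.FSTKO_hFSTL3. Cdkn1a at 0.569 (0.519 to 0.623), Cdkn2a at 0.685 (0.663 to 0.707) and Ccne1 at 0.695 (0.487 to 0.964) were lower. For Ccnd1 and Akt2 the direction was therefore opposite in the whole gate, at 0.741 and 0.921, and in the clean gate. Cdkn2a, Cdkn1a and Ccne1 were lower and Myc higher in KPCA.FSTKO_hFSTL3 by either choice of cells, but without the 5% of cells with most UMIs of the gene the log2 ratios in the whole gate were 0.07 for Cdkn1a and -0.02 for Myc. The clean gate rests on 179 cells of that library, which were deeper, at a median of 47321 UMIs against 29175.5. Among clean-gate cells of KPCA.FSTKO with at least 5000 UMIs, the deepest 698 were set against the shallowest 698. Ccnd1 (ratio 1.52) and Myc (1.13) were higher and Cdkn2a (0.828) lower in the deepest, as between the libraries. Cdkn1a (1.35) and Ccne1 (2.48) went the opposite way, and Akt2 stood at 1.06. The part of depth in the library ratios was not tested.

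**Figure D3:**
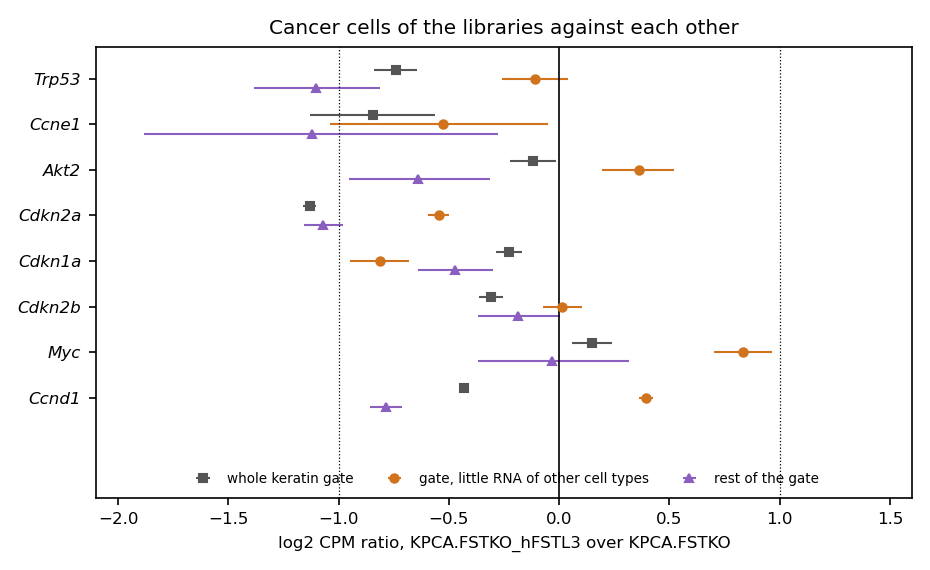
Ratio of CPM on a log2 scale between the cancer cells of KPCA.FSTKO_hFSTL3 and KPCA.FSTKO for the whole gate (squares), the clean gate (circles) and the remaining gated cells (triangles), with 95% counting intervals and dotted lines at a ratio of 2 either way. Cdkn2a lies left of zero in all 3 sets, while Ccnd1 and Akt2 lie on opposite sides of zero in the clean gate and in the rest.

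The G1 genes were next compared between cycling and non-cycling cancer cells. Clean-gate cells with at least 5000 UMIs were ranked by the share of their UMIs in a list of S phase genes or a list of G2/M genes, and the top 698 cells of KPCA.FSTKO were set against the bottom 698 (43 and 43 in KPCA.FSTKO_hFSTL3). Mki67, a proliferation gene of the G2/M list that had no part in the S phase ranking, was 14.2-fold higher in the top S phase cells of KPCA.FSTKO (12.4 to 16.3). Ccne1 was at 14.3 CPM in the top and 2.93 CPM in the bottom S phase cells of KPCA.FSTKO, a ratio of 4.89 (3.70 to 6.56). Ccnd1 was 1.88-fold higher (1.84 to 1.92) and Cdkn1a lower, at 0.645 (0.610 to 0.683). The 2 cyclin genes were thus higher and Cdkn1a lower in cells with more S phase RNA, while the INK4 genes, Myc and the designed Trp53 and Akt2 stood nearer 1. Cdkn2a was at a ratio of 1.14 and Cdkn2b at 0.996, Myc at 1.19, Trp53 at 1.03 and Akt2 at 0.981.

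By the G2/M list the ratios in KPCA.FSTKO were 4.12 (3.12 to 5.53) for Ccne1, 1.74 for Ccnd1, 0.645 for Cdkn1a and 1.08 for Cdkn2a. Myc stood at 1.01 (0.921 to 1.12) by that list. In the smaller groups of KPCA.FSTKO_hFSTL3 Ccne1, Ccnd1 and Cdkn1a pointed the same way. Its Ccnd1 was 1.76-fold higher by the S phase list and 2.07-fold higher by the G2/M list (1.94 to 2.21), and its Cdkn1a stood at 0.650 and 0.471 (0.355 to 0.621). Its Ccne1 ratios were 30.2 (5.03 to 1233), with 1 UMI in the bottom cells, and 9.49 (2.27 to 84.3). Its Cdkn2b was lower in the top cells, at 0.711 (0.592 to 0.854) by the S phase list. Its Trp53 was 2.08-fold higher in the top S phase cells (1.58 to 2.77), unlike in KPCA.FSTKO, but stood at 0.844 (0.598 to 1.19) by the G2/M list. In the 43 deepest cells of that library Trp53 was also 1.85-fold higher than in the 43 shallowest (1.29 to 2.73). The difference between libraries was not tested. The top S phase cells of KPCA.FSTKO were also deeper, with a median of 38259.5 UMIs against 26539. When the same cells were ranked by UMI number instead, Ccne1 was 2.48-fold higher, Ccnd1 1.52-fold higher and Cdkn1a also higher, at 1.35, in the deepest 698, so for Cdkn1a depth went the opposite way from the cycling lists.

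**Figure D4:**
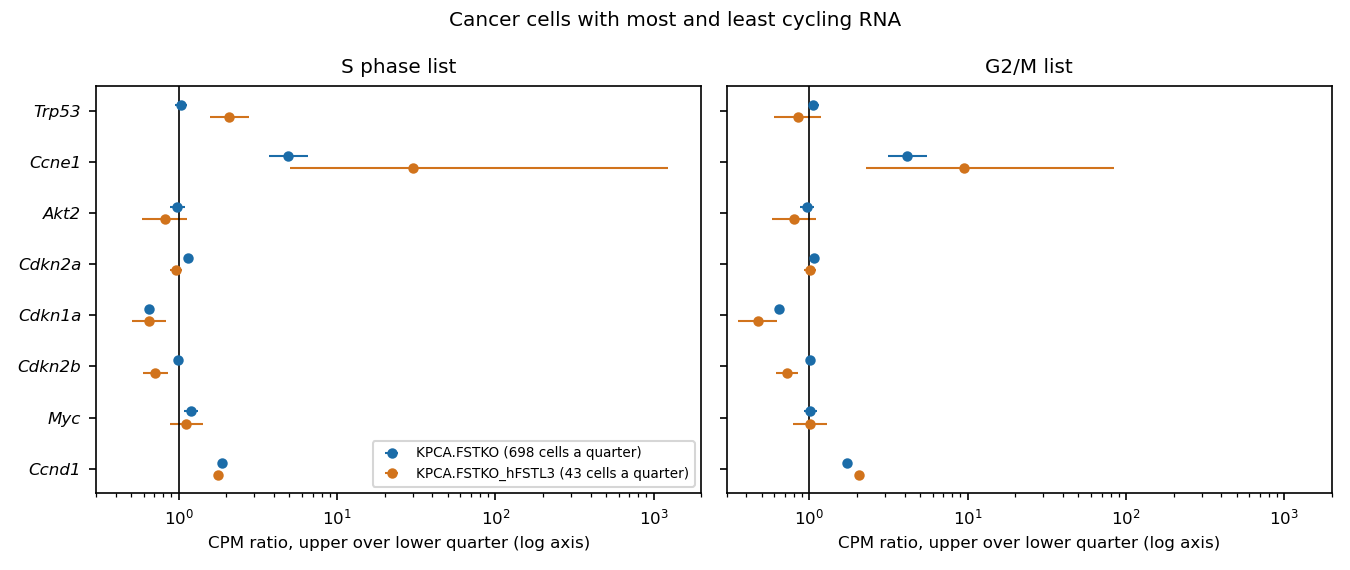
Ratio of CPM (log axis) between the clean-gate cells with the most and the least S phase list RNA (left) or G2/M list RNA (right), with 698 cells on each side for KPCA.FSTKO and 43 for KPCA.FSTKO_hFSTL3 and bars for the 95% counting interval. Ccne1 and Ccnd1 lie right of 1 and Cdkn1a left of 1 for both libraries and both lists.

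Cdkn1a itself varied widely among cancer cells, and the rest of the p53 program was read beside it. The 2642 clean-gate cells of KPCA.FSTKO with at least 10000 UMIs were thinned to 10000 UMIs each, and the 341 cells with 3 or more Cdkn1a UMIs were set against the 1509 with none. Of the other 7 members, 0 were 1.5-fold higher in the Cdkn1a-rich cells and 3 were as much lower, where 3.78% of 9858 genes were higher and 8.95% lower. Those lower were Cdkn2a (0.654), Cdkn2b (0.599) and Ccnd1 (0.638). Of 19 other p53 target genes compared, 3 were higher, Sesn2 (2.04), Btg2 (1.84) and Gdf15 (1.68), and 4 were lower, Fas, Ckap2, Zmat3 and Sesn1. The 3 higher genes are known to respond to other stress signals as well as to p53, and the signal at work was not tested. Mdm2, the p53 ligase and its classic target, stood at 1.43 (1.19 to 1.72) and Cdkn1b at 1.41 (1.22 to 1.64). Of the 22 G2/M genes 8 were lower and 0 higher. The median log2 ratio over all genes was -0.11.

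The keratin threshold could itself shape these values, so the levels were followed across the keratin share. In cells of KPCA.FSTKO without Ptprc, with no host class, little macrophage and acinar RNA and at least 5000 UMIs, Ccnd1 rose with keratin at every step, from 166 CPM (131 to 207) under 0.01% to 423 CPM (411 to 435) just below the gate, 585 CPM (576 to 594) just above it and 970 CPM (904 to 1040) in the 25 cells at 1% or more. Cdkn1a stayed between 61.4 and 69.3 CPM below the gate, was at 84.0 CPM just above it and reached 277 CPM (243 to 315) in the cells richest in keratin. Cdkn2a showed another course, with 456 and 427 CPM in the 37 and 59 cells poorest in keratin, 697 CPM in the next step, 706 CPM (691 to 722) just below the gate, 743 CPM (733 to 754) just above it and 512 CPM (465 to 563) at 1% or more. The steps on either side of the gate thus held Cdkn2a at nearly the same level, whereas Ccnd1 and Cdkn1a moved with the keratin share across it. Trp53 was between 42.2 and 49.4 CPM in every step above the gate and between 23.4 and 76.3 CPM below it.

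**Figure D5:**
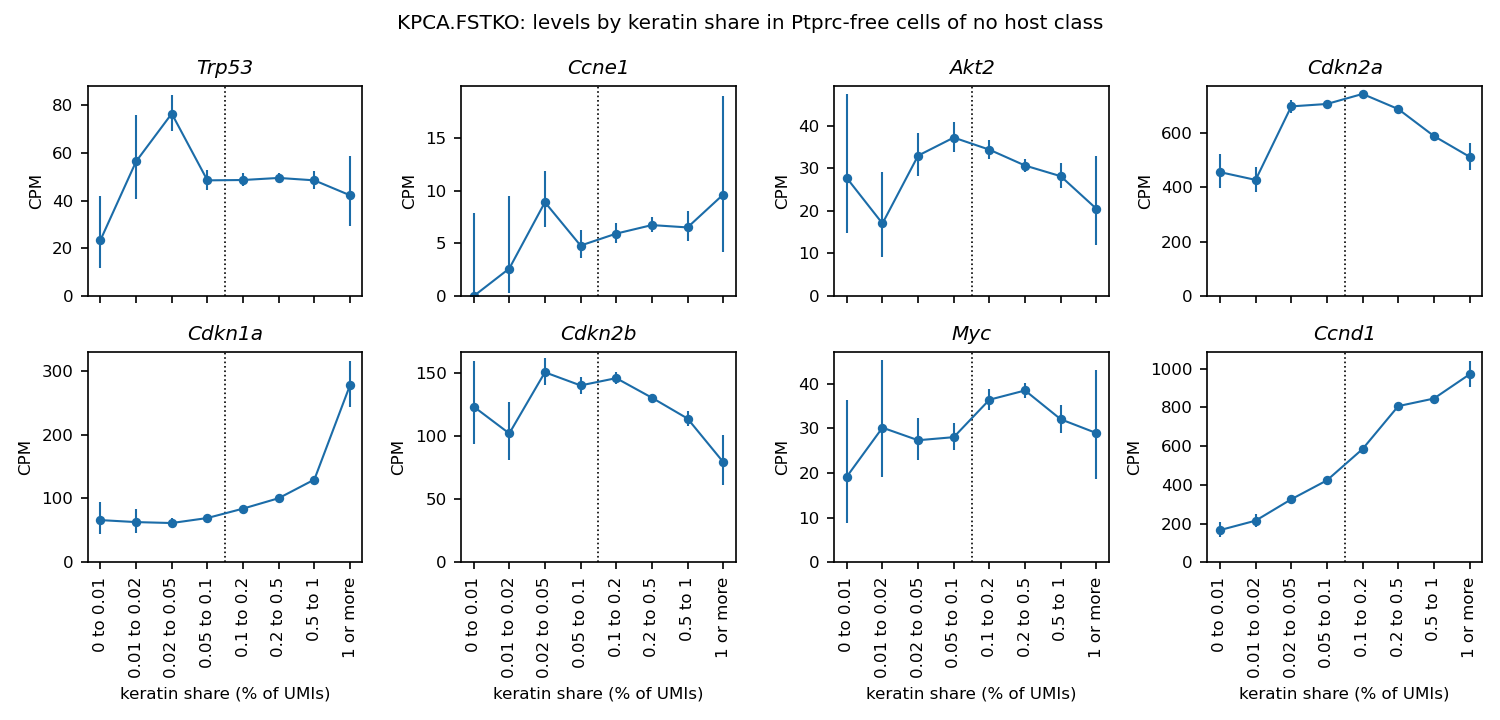
Level of each gene in CPM against the share of UMIs in the 4 keratins, in cells of KPCA.FSTKO without Ptprc, with no host class and at least 5000 UMIs; points give the summed level, bars the 95% Poisson interval, and the dotted line the 0.1% gate. Ccnd1 climbs from 166 to 970 CPM, Cdkn1a climbs above the gate, and Cdkn2a falls above it.

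The other genes of these pathways were described by lists, in the cancer cells over all host cells of KPCA.FSTKO, with a ratio of 2 as the mark. In this comparison 4.18% of all genes were higher and 18.6% lower, and against the leukocytes 25.6% and 18.4%. Of 25 p53 target genes 1 was higher, Perp (4.64), and 6 were lower, shares near those of all genes, with Pmaip1 (0.181) and Btg2 (0.257) lowest. The next highest, Phlda3, stood at 1.87, and the median log2 ratio was -0.20, near the -0.13 over all genes. Against the leukocytes 6 of 24 were higher and 9 lower, with a median of -0.11 against 0.26 over all genes. Of 18 G1 cyclins, kinases and inhibitors, Ccnd1 alone was past the mark, and the median was 0.04. Of 13 RB and E2F genes 0 were higher and 1 lower, Rb1 itself (0.291), while Rbl2 stood at 0.587, E2f8 at 1.84 and E2f5 at 1.5.

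Of 15 PI3K and AKT genes 4 were lower and 0 higher, beside 18.6% and 4.18% of all genes, with a median of -0.40. Pik3cd (0.0421) and Pik3r1 (0.192), subunits of PI3K, were lowest, Pik3cd being known as the leukocyte isoform, and Pik3r2 (1.40) highest. Of 10 MYC network genes compared, Mxd1 (0.219), a MYC antagonist, was lower and 0 were higher. Mxd3 stood at 1.79, Mxd4 at 0.522 and Mycl at 0.810. Of 16 genes of RAS signaling and its feedback, Phlda1 (2.06) and Fosl1 (2.04) were higher and Etv1 (0.353) and Spry1 (0.430) lower, and against the leukocytes 11 of 16 were higher and 1 lower, beside 25.6% and 18.4% of all genes.

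Over all host cells of KPCA.FSTKO, the proliferation lists had the highest medians of the lists. Of 22 G2/M genes 9 were higher and 0 lower in the cancer cells, with a median log2 ratio of 0.96. Ube2c (2.74) and Ccnb2 (2.51) stood highest and Bub1b (1.29) and Mki67 (1.37) lowest. Of 22 S phase genes 2 were higher, Rrm2 (3.12) and Uhrf1 (2.09), and 0 lower, with a median of 0.55 and Dtl (1.25) and Pola1 (0.911) lowest. Against the leukocytes 19 of the 22 G2/M genes were higher, beside 25.6% of all genes, and the RAS list there had a higher median (1.16) than the S phase list (0.54). In KPCA.FSTKO_hFSTL3 the whole gate showed less of this, with 1 of 22 G2/M genes higher and 1 lower, beside 8.14% and 23.1% of all genes, and a median of 0.03 against -0.26 over all genes. There the PI3K and MYC lists had the lowest medians, -0.80 and -0.78. Between the clean gates of the libraries 0 genes of either proliferation list were past a ratio of 2, with medians of -0.05 for S phase and -0.09 for G2/M.

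The genes whose levels over 18 class points of both libraries followed each member most closely were taken from 10680 genes by Pearson's r of log2(CPM + 1), and the classes share libraries and differ in depth. For Cdkn2a they were Ank (0.898) and Gm49890 (0.875), for Cdkn2b Ncam1 (0.928) and the mesothelin gene Msln (0.898), and for Ccnd1 Slc35e4 (0.834) and 5430416N02Rik (0.824). For Cdkn1a they were Sdcbp (0.906) and the nitric oxide synthase gene Nos2 (0.880), and for Myc Ppa1 (0.941) and Cnbp (0.935). The designed genes were nearest to Alkbh1 (0.979) and Rbck1 (0.973) for Trp53, Zfp101 (0.857) and Erlin1 (0.853) for Ccne1, and R3hdm4 (0.950) and Sf3b5 (0.944) for Akt2. Fst itself was at 5.78 and 16.1 CPM in the gates, or 8.80 CPM in the clean gate of KPCA.FSTKO_hFSTL3. All host cells held it at 23.5 and 51.0 CPM. Its 3′ tag may lie outside the deleted part, so the values in the gates check nothing.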

How the data were processed

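Cells of dissociated omental tumors were sequenced with the 10x single cell 3′ v2 chemistry and aligned to mm10 with Cell Ranger (version 3.1.0 in the submitters' processing notes, 7.2.0 in the file header). The deposited matrices hold UMI counts per gene and cell barcode, raw and not normalized, with 1 matrix per library of 4 pooled tumors. Barcodes with more than 200 and fewer than 8000 genes and under 20% mitochondrial UMIs were kept. No doublet removal is described by the study, and none was applied here. Counts were summed per class and divided by the class total, as CPM. Genes with at least 100 UMIs over both sides of a comparison entered the counts of genes. Host classes needed a minimum share of UMIs in a marker list and at least 3 of its markers; these thresholds, the clean gate and the bins were set after the data were seen. The 8 genes and all gene lists were chosen with earlier results of these data known, so no p-value is given. From each list the 2 highest and the 2 lowest cancer over host ratios in KPCA.FSTKO are named, plus paralogs of the members; Mtap, Mdm2 and genes named for a count of 5 or fewer were picked after their values were seen. Some items are not reported here. Classes with under 10 cells are not reported. Intervals came from scipy 1.17.1, sums from pandas 2.3.3 and numpy 2.4.6 under Python 3.11.15, plots from matplotlib 3.10.9, and the TMM factors of 1 alternative from edgeR 4.0.16 (R 4.3.3). Thinning and interval code was tested on simulated data. Alternatives to the gate, filters, scaling and host group were tried. Sequences are from RefSeq.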

Additional observations from a re-analysis of the deposited data

Results flagged for a closer look

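The cancer over host difference of Trp53 and Ccne1 had opposite signs in the libraries. The log2 ratio of Trp53 was 0.12 in KPCA.FSTKO and -0.50 in KPCA.FSTKO_hFSTL3, and that of Ccne1 was 0.44 and -1.19. With 1 library per genotype the difference was not tested. With the clean gate of KPCA.FSTKO_hFSTL3 the value was 0.13 for Trp53 and -0.88 for Ccne1.

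The cells of KPCA.FSTKO_hFSTL3 with both keratin and Ptprc, which entered no comparison, held 4 of the genes above their level in the leukocytes without keratin. Cdkn2a was at 252 CPM in them against 27.6, Cdkn2b at 94.0 CPM against 11.7, Myc at 32.2 CPM against 13.8 and Ccnd1 at 400.0 CPM against 169. The other 4 genes were lower in them, with Cdkn1a at 99.2 CPM against 295, Trp53 at 22.8 against 43.7, Ccne1 at 2.74 against 10.2 and Akt2 at 26.5 against 32.7. Doublets and free RNA were not separated in these cells. They were close in content to the gated cells outside the clean gate of that library. Their share of macrophage list UMIs was 0.145% against 0.137%, of acinar list UMIs 0.722% against 0.749% and of keratin UMIs 0.249% against 0.255%. Their median mitochondrial share was 11.6% against 11.5%. They were deeper, with a median of 23396.5 UMIs against 11476. These 1242 cells were 30.7% of the kept cells of that library, against 1.93% in KPCA.FSTKO.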

How the results depend on the processing

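The count of members at least 2 times higher in the cancer than in the host cells of KPCA.FSTKO was 1, where 4.18% of all genes were as much higher. It moved to 3 with a keratin threshold of 0.05%, 0 with 0.5%, 4 with TMM scaling, 3 with a mean over cells in place of summed counts, 3 without the 5% of cells with most UMIs and 4 without the 5% with most UMIs of each gene. It was 4 against host cells with Ptprc, where 25.6% of all genes were as much higher, and 4 with a ratio of 1.5 as the mark. Against macrophage-like host cells it was 4 and against all named host classes 3, both chosen after seeing the data. In KPCA.FSTKO_hFSTL3 the count of 4, beside 8.14% of all genes, fell to 2 with the 0.5% threshold. Between the libraries the count of 1 became 2 with the 0.5% threshold, 2 when 1 Ptprc UMI was allowed, 0 with a mitochondrial share under 10%, 0 with all deposited barcodes, 3 with a ratio of 1.5 and 0 in the clean gate, which was chosen after seeing the data. The share of all genes past the mark can move with the setting too and is not set beside the other counts here. Those counts therefore describe the settings and are not a result about the members. The causes were not tested.

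Of 309 values of single genes under the alternatives, 133 lay within the counting interval of the main value and 176 did not. No value past the 2-fold mark changed sign, but several short of it did. Akt2 did so in 4 of 14 alternatives over the host cells of KPCA.FSTKO, 3 of 14 in KPCA.FSTKO_hFSTL3 and 3 of 11 between libraries. Trp53 did in 2 of 14 in KPCA.FSTKO_hFSTL3. Between libraries Ccnd1 did in 3 of 11, and Cdkn2b and Myc in 2 of 11 each. Single alternatives did so for Cdkn1a, Cdkn2b and Myc in KPCA.FSTKO and for Cdkn1a between libraries. TMM scaling shifted all cancer over host log2 ratios by 0.30 and 0.35, and those between libraries by 0.05. The log2 ratio between libraries of Ccnd1 was -0.43 and became 0.69 with the 0.5% threshold and 0.04 with the 10% mitochondrial limit, and that of Akt2, -0.12, became 0.23 and 0.11. Ccne1 left too few UMIs for a ratio without the 5% of cells with most of its UMIs. No replicate could be left out, because each group has 1 library. No paired analysis was possible because the labels give no shared replicate numbers and each group has 1 library. Depth limits Ccne1 most, and classes under 100 cells give wide intervals for every gene of low level.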
